A study of Mus musculus with 4 samples.

Results

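The genes described here are 10 mouse genes with which a mucosal epithelium defends its surface: the secreted lectins Reg3b and Reg3g, the immunoglobulin transporter Pigr, the oxidase Duox2 and its maturation factor Duoxa2, the siderophore-binding protein Lcn2, the S100 proteins S100a8 and S100a9, the acute phase protein Saa3 and the inducible nitric oxide synthase Nos2. They were chosen by symbol, and every gene probe whose accession maps to one of these symbols in the RefSeq gene table was taken. Of the 10 genes, 9 had a probe, 1 each, among 41174 probes on the array. No probe mapped to Duox2, which was not analysed here. Of the 9 genes, 6 were bright enough to be tested. The fit held 21044 features, 13408 of them genes with a RefSeq name and the rest array accessions that matched no name, several of which may stand for 1 gene. All 21044 are called genes in the shares and medians below.

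RNA was measured on 4 one-colour arrays, 1 per sample, from cells sorted out of gastric tumours. Lineage-negative CD44+ cells (2 arrays) were compared with lineage-negative CD44- cells (2 arrays). Both fractions came from glandular stomach tumours of K19-Wnt1/C2mE mice aged 30 weeks, and both went through the same digestion of 3 h. In these mice the keratin 19 gene promoter drives Wnt1 together with the prostaglandin-synthesis genes Ptgs2 and Ptges in the gastric epithelium, so all 4 samples carry the transgenes and no array holds normal stomach. CD44 is a hyaluronan receptor on the cell surface. The sources used here do not name the lineage markers of the gate, do not say how many animals made up a sample, and do not say that the replicates came from separate mice. P-values therefore cover the spread among these 4 samples alone, part of which may be technical, and precision is limited by having 2 arrays in a group.

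Epithelial cells release antimicrobial lectins, metal-withholding proteins and oxidants into the mucus and carry antibodies across to the lumen. Many of these genes are switched on by cytokines such as interleukin-22 and interleukin-17 and by microbial products, through STAT3, NF-kappa B and C/EBP proteins. In the normal stomach several of them are low and become abundant in inflamed or metaplastic mucosa.

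The promoters of 4 members are shown because these genes gave the patterns described below, a pair of lectins that followed each other over the arrays and a pair of genes with less signal in CD44+ cells. Each sequence is the 250 bases before the RefSeq start of the gene on build GRCm38.p6, written 5′ to 3′ on the strand of the gene. Capitals mark matches to any of 5 motifs: STAT (TTCNNNGAA), C/EBP (TTGCNNAA), AP-1 (TGANTCA) and kappa B, each on both strands, and the TATA box (TATAAA) on the strand of the gene. Reg3b lies at chr6:78370635-78370884 on the plus strand, Reg3g at chr6:78468875-78469124 on the minus strand, Lcn2 at chr2:32387740-32387989 on the minus strand and S100a9 at chr3:90695722-90695971 on the minus strand.
Reg3b: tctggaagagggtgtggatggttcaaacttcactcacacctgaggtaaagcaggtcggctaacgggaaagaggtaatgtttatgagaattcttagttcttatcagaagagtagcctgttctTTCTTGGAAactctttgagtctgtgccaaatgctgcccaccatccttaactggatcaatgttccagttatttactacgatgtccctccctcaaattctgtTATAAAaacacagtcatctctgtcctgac
Reg3g: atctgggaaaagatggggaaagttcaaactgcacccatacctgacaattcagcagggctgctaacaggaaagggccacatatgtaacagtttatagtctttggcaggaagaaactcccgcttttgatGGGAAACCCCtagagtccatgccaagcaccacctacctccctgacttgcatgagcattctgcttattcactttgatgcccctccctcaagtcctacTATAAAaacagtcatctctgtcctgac
Lcn2: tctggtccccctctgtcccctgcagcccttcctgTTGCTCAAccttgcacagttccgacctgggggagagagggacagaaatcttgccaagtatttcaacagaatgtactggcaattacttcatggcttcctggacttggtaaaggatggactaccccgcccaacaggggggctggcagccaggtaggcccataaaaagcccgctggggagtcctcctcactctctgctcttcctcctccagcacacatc
S100a9: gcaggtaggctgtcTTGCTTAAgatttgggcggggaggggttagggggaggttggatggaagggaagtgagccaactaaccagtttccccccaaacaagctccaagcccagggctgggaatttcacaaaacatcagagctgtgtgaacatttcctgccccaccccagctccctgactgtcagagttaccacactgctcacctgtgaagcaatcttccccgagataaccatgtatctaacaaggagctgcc

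In a global alignment with gaps, the Reg3b and Reg3g windows shared 173 identical bases, 69.2% of the window, while the other 35 pairs of members shared between 46.0% and 57.6%. Counted back from the start, the Reg3b window held a STAT match at bases -129 to -121 and a TATA box at -29 to -24. The Reg3g window held a kappa B match at -123 to -114 and a TATA box at -27 to -22. The Lcn2 window held a C/EBP match at -216 to -209 and the S100a9 window one at -236 to -229. Among the members whose windows are not printed, Saa3 held a C/EBP match, S100a8 a TATA box, Duoxa2 an AP-1 match and a TATA box, and Pigr and Duox2 none of the 5. Of 32851 windows of the same length, 7.02% held the STAT letters, 9.56% the C/EBP letters, 6.75% the AP-1 letters, 3.9% a kappa B match and 7.59% the TATA letters. A match describes the letters only and does not show that a factor binds there.

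Brightness differed between arrays, with 75th percentiles of the processed signal at 244 and 493 for CD44+ samples and at 406 and 527 for CD44- samples. Levels are therefore given as log2 of the processed signal relative to the 75th percentile of its own array, so that a level of 0 is the signal of that percentile. Cd44, the sort marker, had levels of 6.31 and 6.54 on the CD44+ arrays, against 4.26 and 5.11 on the CD44- arrays. The groups did not overlap, the difference was 1.74 ± 0.49 (SE, n = 2 arrays per group, as for all differences below), and the limma adjusted p of 0.199 did not pass 0.05. Epcam, an adhesion molecule of simple epithelia, had levels of 4.69 and 4.66 on the CD44+ arrays, against 3.34 and 2.70 on the CD44- arrays, with a difference of 1.66 ± 0.46 (limma adjusted p = 0.199). Of 13 simple epithelial markers, 13 and 12 were well above background on the CD44+ arrays, against 13 and 13 on the CD44- arrays, so both fractions held epithelial RNA.

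The defence genes did not all differ in the same direction. The immunoglobulin transporter Pigr and the oxidase factor Duoxa2 had a higher scaled level on both CD44+ arrays than on either CD44- array, 2.71-fold and 1.73-fold in the means. The iron-withholding Lcn2 and the calprotectin subunit S100a9 had a lower one, 2.95-fold and 11.2-fold. The lectins Reg3b and Reg3g had higher means in CD44+ cells, 2.14-fold and 2.23-fold, but their arrays overlapped between the groups. Nos2 was not well above background on any array. None of these differences passed limma's test over all genes, that is 0 of 6 genes tested, where 0.399% of all genes passed in either direction, 0.0238% as higher and 0.375% as lower in CD44+ cells. For 4 of the 6 the arrays of the groups did not overlap, where 39.6% of all genes did not. These were Pigr and Duoxa2 on the higher side (22.4% of all genes) and Lcn2 and S100a9 on the lower side (17.2% of all genes). At an unadjusted p under 0.05 there was 1 member on the higher side, Pigr, where 2.86% of all genes lay, and there were 2 members on the lower side, Lcn2 and S100a9, where 7.9% lay. The same 3 genes were at least 2-fold apart without overlap, against 3.8% of all genes on the higher side and 9.66% on the lower side. The median difference of all genes tested was 0.16, and 12743 of the 21044 had a positive difference.

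**Figure D1:**
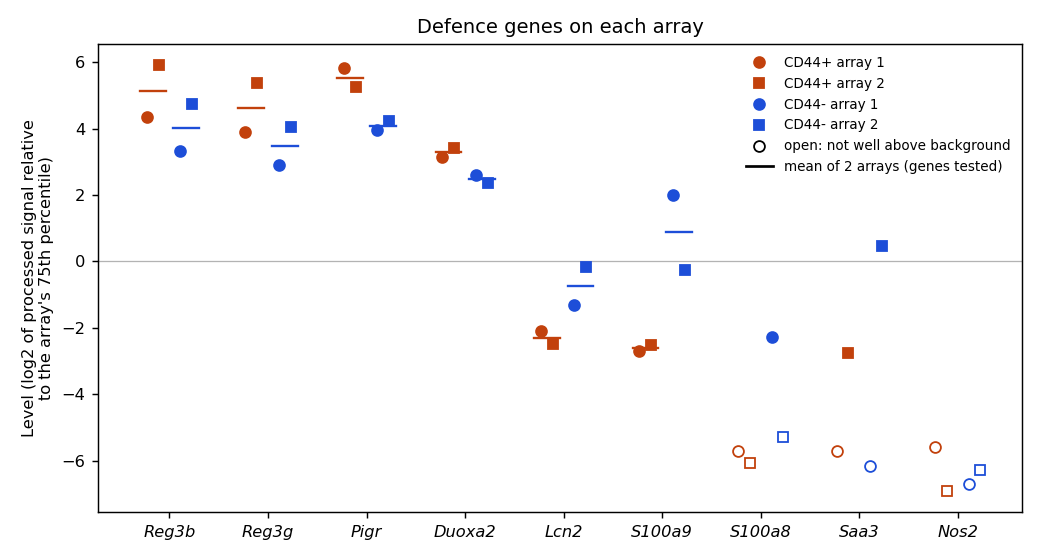
Levels of the 9 defence genes with a probe on each array, as log2 of the processed signal relative to the 75th percentile of the array, with CD44+ arrays left of CD44- arrays for each gene. Filled symbols are well above background, open symbols are not, and bars are means of 2 arrays for the 6 genes tested. Pigr lies at 5.81 and 5.24 on the CD44+ arrays, above 3.95 and 4.23 on the CD44- arrays, while S100a9 lies at -2.69 and -2.52 on the CD44+ arrays, below 2.01 and -0.25 on the CD44- arrays.

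Reg3b and Reg3g encode secreted C-type lectins of the mucus, and the Reg3g protein kills Gram-positive bacteria. Reg3b had a processed signal of 4957 and 29597 on the CD44+ arrays, against 4065 and 14050 on the CD44- arrays. As levels these were 4.35 and 5.91 on the CD44+ arrays, against 3.32 and 4.74 on the CD44- arrays. The second array was the higher one in both groups, and the second CD44- array lay above the first CD44+ array, so the groups overlapped. The difference of Reg3b was 1.10 ± 0.68, or 2.14-fold (limma adjusted p = 0.711). Reg3g had a processed signal of 3610 and 20270 on the CD44+ arrays, against 3029 and 8657 on the CD44- arrays. Its levels were 3.89 and 5.36 on the CD44+ arrays, against 2.90 and 4.04 on the CD44- arrays, with the same order of the 4 arrays as for Reg3b. The difference of Reg3g was 1.16 ± 0.64, or 2.23-fold (limma adjusted p = 0.642). With 1 array left out in turn, the difference ran between 0.32 and 1.88 for Reg3b and between 0.42 and 1.89 for Reg3g, so both stayed above 0 and neither passed.

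For these lectins the gap between the arrays of 1 group was about as large as the difference between the groups, or larger. The second array exceeded the first by 1.56 in the CD44+ group and by 1.42 in the CD44- group for Reg3b, on the log2 scale. For Reg3g these gaps were 1.47 in the CD44+ group and 1.14 in the CD44- group. Over all genes tested the median size of the gap was 0.52 between the CD44+ arrays and 0.49 between the CD44- arrays. Both lectins, 2 of the 6 members, were at least 2-fold brighter on the second array in both groups, where 3.47% of all genes were, and 0 of the 6 were at least 2-fold dimmer there in both groups, where 1.57% were. Likeness between members was measured as the distance between their 4 levels after subtraction of each gene's own mean. Reg3b and Reg3g were the closest pair at 0.21 log2 units, Pigr and Duoxa2 came next at 0.95, and Reg3b and S100a9 were farthest apart at 5.36.

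**Figure D2:**
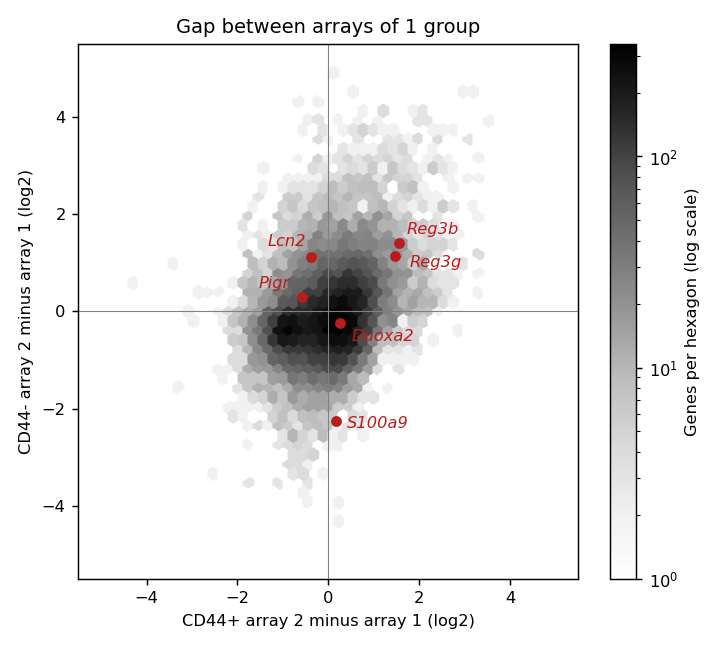
Gap between the arrays of 1 group, second minus first, in log2 units, for the CD44+ group on the horizontal axis and the CD44- group on the vertical axis. Grey hexagons count all genes tested on a log scale, and red points are the 6 defence genes tested. Reg3b at 1.56 and 1.42 and Reg3g at 1.47 and 1.14 lie together in the upper right, while S100a9 at 0.16 and -2.26 lies below the main cloud.

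Pigr encodes the polymeric immunoglobulin receptor, which carries dimeric immunoglobulin A through the epithelial cell into the lumen. It had a processed signal of 13723 and 18629 on the CD44+ arrays, against 6258 and 9915 on the CD44- arrays. Its levels were 5.81 and 5.24 on the CD44+ arrays, against 3.95 and 4.23 on the CD44- arrays, and both CD44+ arrays lay above both CD44- arrays. The difference of Pigr was 1.44 ± 0.46, or 2.71-fold (limma adjusted p = 0.269). It did not pass in any of the 14 other settings of the analysis, where its difference stayed between 1.15 and 1.72. Among the other genes of immunoglobulin A transport and of plasma cells, 9 were tested, 0 passed in limma (0 at an unadjusted p under 0.05), and the median difference was 0.44. Ccl28, a chemokine that draws immunoglobulin A plasma cells to mucosa, had a difference of 1.14 ± 0.52 (limma adjusted p = 0.512). Jchain, the peptide that joins the subunits of the immunoglobulin A that Pigr carries, was well above background on 1 CD44- array at most with either of its probes, and on no CD44+ array, and it was not tested.

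Duoxa2 is needed for the oxidase Duox2 to leave the endoplasmic reticulum and release hydrogen peroxide at the apical surface. It had a processed signal of 2168 and 5253 on the CD44+ arrays, against 2478 and 2730 on the CD44- arrays. Its levels were 3.15 and 3.41 on the CD44+ arrays, against 2.61 and 2.37 on the CD44- arrays. Both CD44+ arrays lay above both CD44- arrays once each was scaled, while the unscaled signal of the first CD44+ array lay below both CD44- arrays. The difference was 0.79 ± 0.44, or 1.73-fold (limma adjusted p = 0.653), and it ran between 0.65 and 0.92 over the 14 other settings without passing. The related genes Duox1 and Duoxa1 had no probe with those names. Of the other NADPH oxidase genes 11 were tested and 0 passed in limma, with 2 higher and 2 lower in CD44+ cells at an unadjusted p under 0.05. Their median of 0.17 was close to the median of all genes. Noxo1, which organises the NADPH oxidase Nox1 in gut epithelium, had levels of 6.03 and 6.11 on the CD44+ arrays, against 4.38 and 4.99 on the CD44- arrays, with a difference of 1.38 ± 0.46 (limma adjusted p = 0.290). Nox1 itself was well above background on the second CD44+ array alone and was not tested. Gpx2, a glutathione peroxidase of gastrointestinal epithelium that removes hydrogen peroxide, had a difference of 1.09 ± 0.47 (limma adjusted p = 0.455). Rac2, a GTPase of the oxidase of leukocytes, had a difference of -2.19 ± 0.59 that did not pass (limma adjusted p = 0.184).

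Nos2 makes nitric oxide in activated epithelium and macrophages. Its processed signal was 5.03 and 4.10 on the CD44+ arrays, against 3.89 and 6.82 on the CD44- arrays. None of the 4 values was well above background, so no fold is given. Of the other genes of nitric oxide and arginine metabolism 8 were tested, and all 8 had a positive difference (12743 of all 21044 genes did). In limma 0 passed (1 at an unadjusted p under 0.05), and the median was 0.39. Arg1, the arginase that competes with nitric oxide synthase for arginine, had levels of -0.87 and -0.76 on the CD44+ arrays, against -2.40 and -2.04 on the CD44- arrays, with a difference of 1.41 ± 0.44 (limma adjusted p = 0.256).

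Lcn2 encodes lipocalin 2, which binds bacterial siderophores and withholds iron. It had a processed signal of 56.9 and 87.7 on the CD44+ arrays, against 165 and 468 on the CD44- arrays. Its levels were -2.10 and -2.49 on the CD44+ arrays, against -1.30 and -0.17 on the CD44- arrays. Both CD44+ arrays lay below both CD44- arrays, and the second CD44- array was the highest. The difference of Lcn2 was -1.56 ± 0.53, or 2.95-fold lower in CD44+ cells (limma adjusted p = 0.297). It was -2.12 without the first CD44- array, where Lcn2 passed (limma adjusted p = 0.0311), and -0.99 without the second CD44- array, where it did not.

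S100a8 and S100a9 form calprotectin, which withholds zinc and manganese from microbes, is abundant in neutrophils and is also made by squamous keratinocytes. S100a9 had a processed signal of 37.9 and 85.6 on the CD44+ arrays, against 1637 and 443 on the CD44- arrays. Its levels were -2.69 and -2.52 on the CD44+ arrays, against 2.01 and -0.25 on the CD44- arrays. Both CD44+ arrays lay below both CD44- arrays, and the first CD44- array was the highest. The difference of S100a9 was -3.49 ± 0.71, or 11.2-fold lower in CD44+ cells, and limma's adjusted p of 0.110 did not pass. This call depended on the setting. Of the settings counted next, median scaling and the authors' value table gave nearly the same fit. The smallest p below came from a fit that gave all genes 1 shared spread. S100a9 passed in 7 of the 14 other settings, with limma adjusted p values between 1.18e-09 and 0.606 over all 14, and its difference was -2.36 without the first CD44- array and -4.62 without the second, passing in both cases. S100a8 had a processed signal of 4.61 and 7.29 on the CD44+ arrays, against 84.3 and 13.6 on the CD44- arrays, and only the first CD44- array was well above background. It was not tested. No fold is given, since 1 array of 4 measured it.

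Saa3 is an acute phase apolipoprotein made outside the liver in mice. It had a processed signal of 4.65 and 72.9 on the CD44+ arrays, against 5.64 and 724 on the CD44- arrays. Only the second array of each group was well above background, so Saa3 was not tested and no fold between the groups is given. Its relative Saa1 had a difference of 0.25 ± 0.54 (limma adjusted p = 0.897). Saa2 was not well above background in CD44+ cells, and its processed signal was 8.88 and 12.8 on the CD44+ arrays, against 17.4 and 21.4 on the CD44- arrays. Its difference was -0.44 ± 0.45 (limma adjusted p = 0.808). The lowest signal well above background on the first CD44+ array was 22.9, higher than Saa2 had on either CD44- array.

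**Figure D3:**
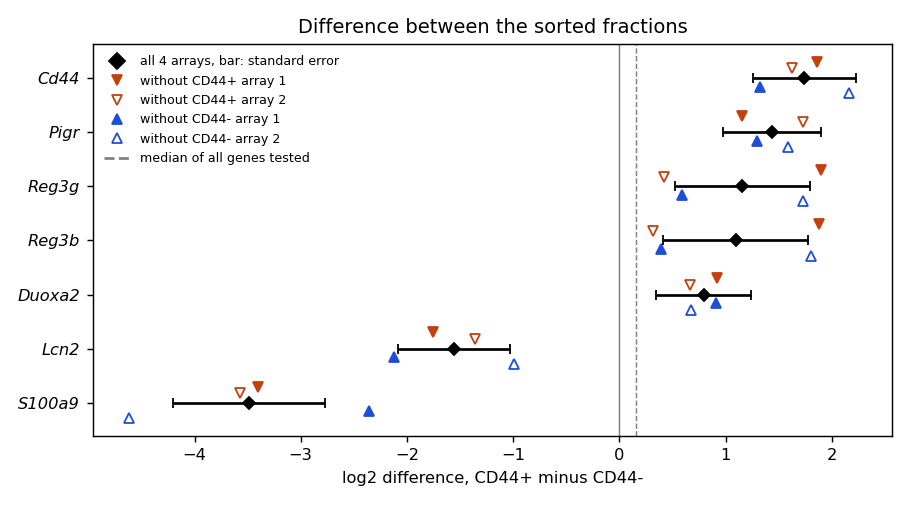
Log2 difference, CD44+ minus CD44-, for Cd44 and the 6 defence genes tested. Diamonds with bars are the fit of all 4 arrays with its standard error, triangles are fits with 1 array left out, and the dashed line is the median of all genes tested at 0.16. The triangles of S100a9 spread between -4.62 and -2.36 and those of Reg3b between 0.32 and 1.88, while those of Duoxa2 stay between 0.66 and 0.92.

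The arrays with the most signal of Lcn2, Saa3, S100a9 and S100a8 were also high in markers of other cell types. In this comparison of mixed samples, fewer cells of a type and less RNA per cell cannot be told apart. Fibroblast markers, all 13 of them tested, had median levels of -1.76 and 0.38 on the CD44+ arrays, against 1.01 and 4.10 on the CD44- arrays. Endothelial markers, 8 of them tested, had median levels of -3.01 and -1.96 on the CD44+ arrays, against -0.13 and 3.48 on the CD44- arrays. In limma 0 of the 13 and 0 of the 8 passed, with 11 and 7 lower in CD44+ cells at an unadjusted p under 0.05, where 7.9% of all genes lay. Both lists were highest on the second CD44- array, as Lcn2 and Saa3 were, and summed fibroblast signal was 8.71 and 48.0 times the 75th percentile on the CD44+ arrays, against 75.6 and 540 times on the CD44- arrays. Squamous markers, 14 of them tested, had median levels of -0.30 and -1.78 on the CD44+ arrays, against 3.21 and 3.43 on the CD44- arrays. Of the 14, 5 passed as lower in CD44+ cells, where 0.375% of all genes did. Among these, the keratin Krt16 had a difference of -6.17 ± 0.51 (limma adjusted p = 0.00544). Summed squamous signal was 23.7 and 4.92 times the 75th percentile on the CD44+ arrays, against 359 and 645 times on the CD44- arrays. Enteroendocrine markers, of which 7 of 9 passed as lower (0.375% of all genes did), summed to 3.86 and 5.29 times on the CD44+ arrays, against 367 and 783 times on the CD44- arrays. These counts depended on single arrays and on the scaling. Without the second CD44+ array 1 squamous and 1 enteroendocrine gene passed, as with quantile normalization, and without the first CD44+ array 9 and 5 did. Without the first CD44- array 11 squamous, 13 fibroblast and 7 endothelial genes passed, and without the second CD44- array 10, 1 and 5 did. With median scaling 11 squamous, 8 fibroblast and 6 endothelial genes passed.

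S100a9 and S100a8 were highest on the first CD44- array, where the squamous list was not. The surface mucous markers had median levels of 3.36 and 3.08 on the CD44+ arrays, against 5.78 and 2.77 on the CD44- arrays, highest on the first CD44- array. Of the 7 genes in this list 3 had positive and 4 negative differences, 5 overlapped between the groups and 0 passed in limma (2 lower ones had an unadjusted p under 0.05). The median difference was -0.01, or 0.09 with median scaling. Tff1, Gkn2 and Krt20, named after their values were seen, had differences of 0.56 ± 0.53, 0.45 ± 0.55 and 0.72 ± 0.81. The 2 genes without overlap were Muc5ac and Psca, both lower in CD44+ cells, where 17.2% of all genes lay lower without overlap. The mucin Muc5ac had levels of 0.26 and -1.02 on the CD44+ arrays, against 5.78 and 2.77 on the CD44- arrays, which are also the median levels of the list there, and its difference was -4.65 ± 0.93 (limma adjusted p = 0.105), although a second probe of Muc5ac had a difference of 0.22. The surface antigen Psca had levels of -0.75 and -0.41 on the CD44+ arrays, against 5.36 and 2.59 on the CD44- arrays, and its difference was -4.55 ± 0.82 (limma adjusted p = 0.0828). Summed over the 7 markers, surface mucous signal was 3084 and 1517 times the 75th percentile on the CD44+ arrays, against 2167 and 1135 times on the CD44- arrays, so the sums overlapped between the groups. The part of fibroblast, endothelial, squamous, enteroendocrine and surface mucous signal in the values of Lcn2, Saa3, S100a9 and S100a8 was not tested.

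**Figure D4:**
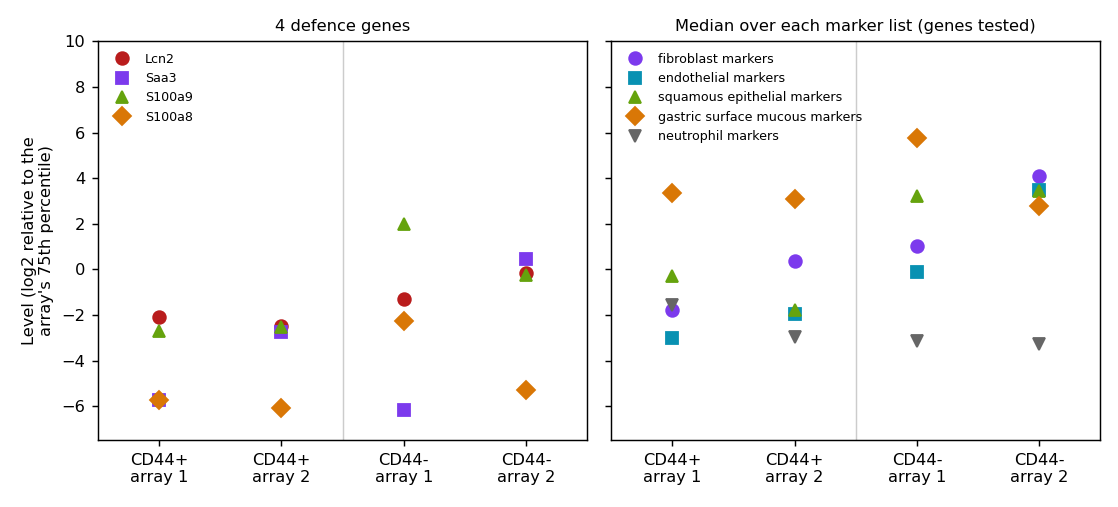
Levels on each array, as log2 relative to the 75th percentile, of Lcn2, Saa3, S100a9 and S100a8 in the left panel and the median level of 5 marker lists in the right panel. Lcn2 and Saa3, like the fibroblast and endothelial medians of 4.10 and 3.48, are highest on the second CD44- array, while S100a9 and S100a8, like the surface mucous median of 5.78, are highest on the first CD44- array. That surface mucous median is the level of Muc5ac. The summed surface mucous signal was highest on the first CD44+ array, at 3084 times the 75th percentile against 2167 times on the first CD44- array.

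Markers of neutrophils, the usual source of calprotectin in inflamed tissue, were mostly at background. Of the 17 neutrophil markers with a probe, 10 were not well above background on any array. These were Elane, Ngp, Camp, Csf3r, Cxcr2, Mmp8, Retnlg, Stfa2, Fpr2 and Itgam. Other markers of the list, Mpo, Prtn3 and Ctsg, were well above background on all 4 arrays. Their differences were 0.25 ± 0.57, 0.65 ± 0.48 and 0.68 ± 0.48 (limma adjusted p = 0.905, 0.770 and 0.756). Of the 17, 5 and 5 were well above background on the CD44+ arrays, against 6 and 7 on the CD44- arrays. Of the 6 that were tested all had positive differences (12743 of all 21044 genes did). In limma 0 passed (0 at an unadjusted p under 0.05), and the median was 0.37, or -0.11 without the first CD44+ array. Il1r2, a decoy receptor of interleukin-1 named after its values were seen, had 2 probes that disagreed. The one that stood for the gene had a difference of 0.50 ± 1.87 (limma adjusted p = 0.942), with a processed signal of 274 and 3.82 on the CD44+ arrays, against 17.7 and 52.5 on the CD44- arrays. The other had a processed signal of 4.82 and 6.68 on the CD44+ arrays, where it was not well above background, against 71.1 and 205 on the CD44- arrays. Measured against the lowest signal well above background on each CD44+ array, that probe was at least 5.03-fold lower in CD44+ cells. It passed with each probe tested on its own (limma adjusted p = 0.0268), a p computed on the measured signals below that floor. The summed signal of the neutrophil markers was 140 and 108 times the 75th percentile on the CD44+ arrays, against 94.0 and 128 times on the CD44- arrays, and most of it was Ltf, an iron-binding protein that glandular epithelia make as well. Macrophage markers gave a median difference of 0.29 over 6 genes with 0 passing (unadjusted p under 0.05 for 1 higher and 1 lower gene). The sum of this list was 51.3 and 59.3 times on the CD44+ arrays, against 20.2 and 26.2 times on the CD44- arrays. Most of that sum was the single gene Cd14. Of the 13 macrophage markers with a probe, 6 were not well above background on any array. Pan-leukocyte markers gave a median of 0.36 over 9 genes, of which 1, Cd53, passed as at least 9.06-fold higher in CD44+ cells (limma adjusted p = 0.0240), by the same floor on the CD44- arrays. The p of Cd53 was computed on the measured signals, without the floor. No gene of the list passed with quantile normalization, with no filter on dim probes or without either CD44+ array. Tyrobp and Laptm5 pointed the other way, with differences of -1.74 ± 0.53 (limma adjusted p = 0.241) and -1.48 ± 0.57 (limma adjusted p = 0.381). In the list 3 genes lay higher without overlap (22.4% of all genes did) and 3 lay lower (17.2% did). The pan-leukocyte sum was 7.33 and 6.41 times on the CD44+ arrays, against 6.32 and 4.39 times on the CD44- arrays. Ptprc, the leukocyte antigen CD45, had a difference of -0.66 ± 0.47 with its brightest probe (limma adjusted p = 0.765), and its other 2 probes were not well above background on any array.

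Pigr and Duoxa2 had their higher levels on the arrays where the median levels of mucous neck and simple epithelial markers were also higher. All 4 mucous neck markers tested had positive differences (12743 of all 21044 genes did), with a median of 2.40. In limma 0 passed, and 3 were higher at an unadjusted p under 0.05. The summed signal of the 4 markers was 1603 and 1478 times the 75th percentile on the CD44+ arrays, against 864 and 470 times on the CD44- arrays. Among them the gastrokine Gkn3 had levels of 9.12 and 9.38 on the CD44+ arrays, against 6.51 and 7.28 on the CD44- arrays, with a difference of 2.35 ± 0.48 (limma adjusted p = 0.110). The water channel Aqp5 and the chloride channel Cftr had differences of 3.08 ± 0.91 (limma adjusted p = 0.224) and 2.46 ± 0.60 (limma adjusted p = 0.155). Without the second CD44- array and with median scaling 3 of the 4 passed. Of 13 simple epithelial markers 11 had positive differences and 0 passed in limma (2 higher and 2 lower ones had an unadjusted p under 0.05). The median levels of this list were 4.69 and 4.66 on the CD44+ arrays, against 3.60 and 3.03 on the CD44- arrays. Its summed signal was 2284 and 1667 times the 75th percentile on the CD44+ arrays, against 2066 and 896 times on the CD44- arrays, so the sums overlapped. Of the 13 genes 5 lay higher without overlap (22.4% of all genes did), 2 lay lower (17.2% did) and 6 overlapped. The part of mucous neck and simple epithelial signal in the values of Pigr and Duoxa2 was not tested.

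Other secreted antimicrobial proteins also lay on both sides. Of 27 such genes with a probe 16 were tested, 8 with a positive and 8 with a negative difference, and the median of 0.04 lay below that of all genes and changed sign with quantile normalization (-0.04) and without the second CD44- array (-0.13). The beta-defensin Defb1, a small cationic peptide that disrupts bacterial membranes, passed as lower. Its processed signal was 8.95 and 3.08 on the CD44+ arrays, where it was not well above background, against 212 and 608 on the CD44- arrays. It was at least 15.0-fold lower in CD44+ cells (limma adjusted p = 0.0391), and a second probe gave at least 13.7-fold. That p was computed on the measured CD44+ signals, which lay below the floor used for these folds. With only genes well above background on all 4 arrays, Defb1 was not tested. With quantile normalization, with no filter on dim probes and without the second CD44+ array, 0 genes of this list passed, so Defb1 did not pass there. Slpi, a secreted inhibitor of leukocyte proteases, had levels of 0.75 and 1.34 on the CD44+ arrays, against 3.38 and 3.75 on the CD44- arrays. The groups did not overlap, and the difference of -2.53 ± 0.47 did not pass (limma adjusted p = 0.0861). The lysozyme Lyz2, an enzyme that cleaves bacterial cell walls, had a difference of -2.30 ± 0.88 (limma adjusted p = 0.368) and spread by 3.03 on the log2 scale between the CD44+ arrays, where the second array was the lower. Its close copy Lyz1 had a difference of -0.89 ± 0.64 (limma adjusted p = 0.764). Cross-hybridisation between such near-identical genes was not tested. On the other side, Reg2, a lectin of the same family as Reg3b, had a difference of 1.46 ± 0.52 (limma adjusted p = 0.321), and its second array was the brighter one in the CD44+ group but not in the CD44- group. Reg1, named after its values were seen, had levels of 7.20 and 8.33 on the CD44+ arrays, against 6.16 and 7.12 on the CD44- arrays. Its second array was the brighter one in both groups, as for Reg3b and Reg3g, and its groups did not overlap. The difference of Reg1 was 1.12 ± 0.57 (limma adjusted p = 0.589). Reg3a had levels of -4.97 and -4.54 on the CD44+ arrays, against -4.32 and -4.26 on the CD44- arrays, near background, with a difference of -0.47 ± 0.45 (limma adjusted p = 0.800). Ltf and the secreted protein Wfdc2 had differences of 0.15 ± 0.46 (limma adjusted p = 0.928) and 0.25 ± 0.44 (limma adjusted p = 0.877).

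Acute phase genes and further S100 genes, 17 of them tested, had a median of -0.08, and 0 passed in limma (0 higher and 4 lower in CD44+ cells at an unadjusted p under 0.05). The median moved to 0.03 with each array scaled to its own median, a scaling under which the median of all genes was 0.26 and not 0.16, so its sign rests on the scaling, and it ran between -0.34 and 0.43 with 1 array left out. Haptoglobin (Hp), which binds free haemoglobin, had levels of -2.95 and -4.42 on the CD44+ arrays, against -0.66 and -0.88 on the CD44- arrays, with a difference of -2.92 ± 0.57 (limma adjusted p = 0.104). The complement component C3 had a difference of -2.45 ± 0.67 (limma adjusted p = 0.193) and was highest on the second CD44- array, at a level of 4.34 against 2.30 on the first. The lipopolysaccharide-binding protein Lbp had a difference of -2.49 ± 0.73 (limma adjusted p = 0.222) and the same highest array. S100a4, which fibroblasts and leukocytes express, had a difference of -1.67 ± 0.44 (limma adjusted p = 0.182). Named for the smallest p in the list, these 4 lay lower on both CD44+ arrays than on either CD44- array. In the whole list 5 genes lay lower without overlap (17.2% of all genes did), 3 lay higher, namely S100a10, S100a11 and S100b (22.4% of all genes did), and 9 overlapped.

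The signals that induce these genes were measured as ligands, receptors and intracellular factors. Among 10 ligands tested 0 passed in limma, with 2 higher in CD44+ cells at an unadjusted p under 0.05, and the median was 0.16. Il33, an alarmin of epithelial nuclei, had levels of 4.98 and 5.02 on the CD44+ arrays, against 2.06 and 2.40 on the CD44- arrays. Its difference of 2.77 ± 0.44, or 6.84-fold, did not pass (limma adjusted p = 0.0553). With each probe tested on its own Il33 passed (limma adjusted p = 0.0487), so its call depended on the setting. Of the ligands, 1 passed with median scaling, with normexp background, on the authors' value table and with a variance trend. With quantile normalization, with no filter on dim probes and with the mean of a gene's probes 0 passed. Il1a had a difference of 1.84 ± 0.62 (limma adjusted p = 0.298) and Il1b one of -1.54 ± 0.68 (limma adjusted p = 0.485). Il6, which acts through STAT3, had a processed signal of 4.70 and 121 on the CD44+ arrays, against 40.4 and 1253 on the CD44- arrays. Like Reg3b, Reg3g and Saa3 it was far brighter on the second array of each group, the groups overlapped, and its difference was -2.82 ± 1.53 (limma adjusted p = 0.630). Il22 and Il17a, named after their values were seen, were not well above background on any array. Among 28 receptors 0 passed in limma, with 1 higher and 4 lower in CD44+ cells at an unadjusted p under 0.05, and the median was 0.08. The interleukin-22 receptor Il22ra1 had a difference of 0.67 ± 0.52 (limma adjusted p = 0.777), the interleukin-17 receptor Il17ra one of -0.67 ± 0.48 (limma adjusted p = 0.761) and the lipopolysaccharide receptor Tlr4 one of 0.16 ± 0.51 (limma adjusted p = 0.931). Its coreceptor Cd14 had levels of 5.62 and 5.87 on the CD44+ arrays, against 4.25 and 4.66 on the CD44- arrays, with a difference of 1.29 ± 0.45 (limma adjusted p = 0.316). Among 26 intracellular factors 0 passed in limma, with 2 lower in CD44+ cells at an unadjusted p under 0.05, and the median was -0.08, or 0.03 with each array scaled to its own median. Stat3, Nfkbiz and Cebpb, which act upstream of Reg3 and Lcn2 genes, had differences of -0.13 ± 0.44, -0.11 ± 0.47 and 0.15 ± 0.55 (limma adjusted p = 0.934, 0.948 and 0.940), and their groups overlapped.

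**Figure D5:**
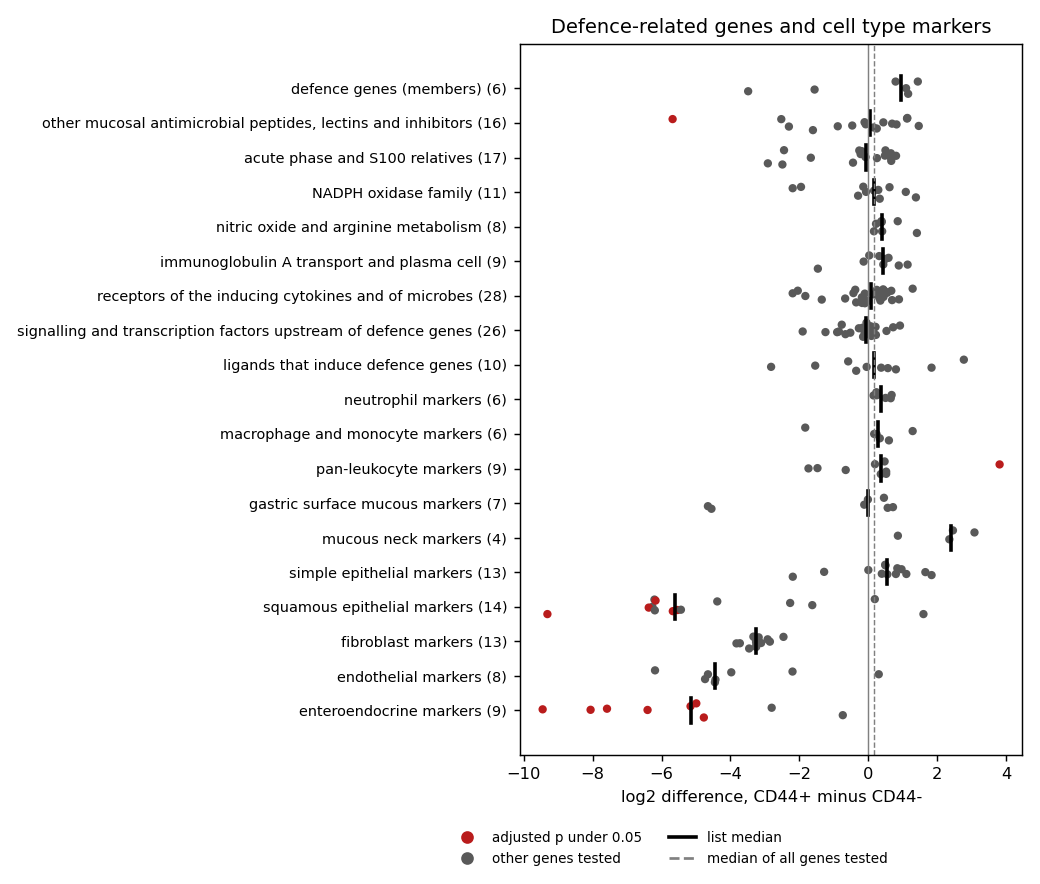
Log2 difference, CD44+ minus CD44-, of each gene tested in the defence set and in 18 lists of related genes and cell type markers, with the number tested in brackets. Red points passed at an adjusted p under 0.05, black bars are list medians, and the dashed line is the median of all genes tested at 0.16. The 6 defence genes lie on both sides of 0, the squamous and enteroendocrine lists lie mostly below 0 with medians of -5.61 and -5.16, and the mucous neck list lies above 0 with a median of 2.40.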

How the data were processed

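RNA of 4 samples, 2 lineage-negative CD44+ and 2 lineage-negative CD44- gastric tumour fractions, was measured on 4 one-colour Agilent arrays. From each sample 25 ng of total RNA was amplified, per the labels' protocols, and 0.2 ug of the product was labelled with Cy3. The authors deposited 1 scanner table per array. Its processed signal is a background-subtracted intensity on a linear scale, per the file headers, and its median spot and background signals are raw intensities. The headers name Feature Extraction 10.1.1.1 and the submitters' processing notes 9.5, and it is unknown which of these versions was used. The authors also deposited a value table, in which each value is a linear ratio of an array's scaled signal to the median of the probe over the 4 arrays, held at 0.01 or more. Set against the scanner values over 10728 bright probes, log2 differences between arrays had an SD of at most 0.00161. How each array was scaled there is not known directly. The fit of this table came close to that with median scaling, with 748 against 749 genes passing and Cd44 differences of 1.845 against 1.847. Its column medians were 0.853 and 0.989 for the CD44+ arrays, against 0.928 and 0.739 for the CD44- arrays. Flags coded 0 or 1 for outliers, for saturation and for a spot well above its background were also deposited by the authors, per the file headers.

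Controls and the 109 to 133 outlier spots of an array were dropped before spots of 1 probe were averaged. No spot was saturated. Levels were log2 values of the ratio between the processed signal and the 75th percentile over all probes of the array. Well above background were 53.1% and 65.6% of gene spots on the CD44+ arrays, against 66.6% and 69.6% on the CD44- arrays. Accessions matched to the RefSeq gene table (GRCm38.p6) named 24375 probes for 17016 genes, and 16799 probes stayed unnamed. The array design uses build mm8, so probe coordinates are left out. To be tested, a probe had to be well above background on both arrays of 1 group or of both. The brightest probe stood for its gene, and unnamed probes were grouped by accession, so 13408 of the 21044 genes tested have a name. Groups, taken from the sample titles, were compared with limma 3.58.1 (lmFit, eBayes) in R 4.3.3 with no covariates and Benjamini-Hochberg adjustment over all 21044 genes, and adjusted p values under 0.05 were called. The scripts were tested on simulated data. For a gene not well above background in 1 group, "at least" folds use the lowest signal well above background on each array of that group as a floor. The limma p values beside such folds were computed on the measured signals, without this floor.

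The members, the gene lists and the tests were chosen with earlier results of these data known. The genes named are the members, Cd44, the functional partners of the members, and of each list up to 4 genes with the smallest p and any gene that passed, and not all of them are reported here. The alternatives were other scalings, background correction, the authors' value table, filters, probe rules, a variance trend, the replicate number as a block and each array left out. Normexp was run on the median spot signal, since no mean spot signal column was used here. All 4 arrays lay on 1 slide, so a slide block could not be fitted.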

Additional observations from a re-analysis of the deposited data

How the results depend on the processing

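Of the 6 defence genes tested, 0 passed with all 4 arrays. One gene, S100a9, passed in each of the fits with median scaling, with normexp background, on the authors' value table and with only genes well above background on all 4 arrays (1 defence gene each). S100a9 differed there by -3.38, -2.54, -3.38 and -3.49, with limma adjusted p values of 0.00404, 4.31e-05, 0.00403 and 0.0446. Median scaling and the authors' value table gave nearly the same fit, so they are not 2 separate results. With 1 array left out the number of defence genes that passed ran between 0 and 2, as S100a9 and Lcn2 passed without CD44- replicate 1, S100a9 alone without CD44- replicate 2, and none without either CD44+ array. The lone array left in a group is assumed to vary like the other group in these fits. Over all genes, 84 passed, against 749 with median scaling (121 higher and 628 lower), 748 on the authors' value table, 541 with normexp background, 130 with a variance trend, 24 with no filter on dim probes and 6 with quantile normalization, and between 2 and 1582 with 1 array left out. Median scaling moved the share of higher calls, 5 of 84 in the main setting, and the setting of all 4 arrays above background gave 18 higher and 61 lower. Cd44 passed with normexp background (1.69, limma adjusted p = 0.0289). With the replicate number as a block, 1829 genes passed, among them 2 defence genes (S100a9, adjusted p = 1.18e-09, and Lcn2, adjusted p = 0.0320), and Cd44 at 1.74 (limma adjusted p = 0.0114). In the block fit and the normexp fit limma gave all genes 1 shared spread, with SEs of 0.52 and 0.50. The p values of these 2 fits therefore leave out a gene's own spread, such as the SD of 1.60 of S100a9 over the CD44- arrays. The same-numbered arrays deviated together, with a correlation of 0.35 over 21038 genes. There are only 2 pairs, and no label says that the number marks a shared animal or day. Whether the numbers pair the samples is therefore unknown. None of the 6 defence genes or Cd44 changed sign in any of the 14 settings, and Reg3b, Reg3g, Pigr and Duoxa2 passed in none. The causes of these changes were not tested. Signal over background limits S100a8, Saa3 and Nos2, which were not tested.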
